A study of Mus musculus with 18 samples.

Results

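A mouse embryo fibroblast line with 3 copies of chromosome 1 (titled Ts1) was set against 9 fibroblast lines with normal chromosomes (titled Wt, called controls here). The trisomic line is 1 of 18 arrays in the series, chosen by its title, and the 9 controls were chosen in the same way. The other 8 arrays carry an extra chromosome 13, 16 or 19. They are used below to choose genes and probe sets and in a model fit to all 18 arrays, and otherwise only for reference values. All cultures were grown for 2 passages in DMEM with 10% fetal calf serum and glutamine, RNA was extracted with Trizol, and 5 ug of it were labelled as biotinylated cRNA for an Affymetrix expression array. The labels used here give no strain, embryonic age or sex, and do not say whether each line came from its own embryo. One control, replicate 9, has the same first number in its title as the trisomic line. The labels do not explain that number, and this control, called the number-matched control, is also compared on its own. With 1 trisomic array there is no replicate of the trisomy, so differences are described by their place beyond or inside the range of the controls.

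A trisomic cell carries an additional copy of every gene on the extra chromosome. If transcript output follows gene copy number, each of these genes is expected to be expressed at 1.5 times the normal level, which is 0.58 on the log2 scale, and a gene under feedback can depart from that. Mouse trisomies of this kind are made by breeding, most do not survive to birth, and fibroblasts taken from the embryos serve to study the effects of a whole extra chromosome on growth and gene expression.

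The values are log2 expression values as deposited. Of 12394 genes on the array, 7382 had a mean of at least 4 over all 18 arrays and were used, 414 of them on chromosome 1 and 6968 elsewhere. A gene lay outside when its value in the trisomy 1 line was above or below all 9 controls. Control values are given as lowest, median and highest. By measures of RNA quality the trisomic array lay inside the range of the controls. Its Gapdh 3' minus 5' difference was 0.60, against -0.20 to 1.41 in the controls, and its median signal was 5.84, against 5.63 to 5.91. Across genes off chromosome 1 its deviations from the control mean had an SD of 0.66, against 0.33 to 0.71 for single controls. All 13 fibroblast markers were at or above 4 in it, and their summed linear signal of 3.27e+05 lay between the lowest control (2.83e+05) and the highest (3.43e+05). Of the erythroid markers, 9 of 9 were under 4, and so were 9 of 9 liver markers and 15 of 16 macrophage markers.

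Chromosome 1 stood apart from every other chromosome in the trisomy 1 line. The mean of its 414 genes relative to the other autosomes was higher than the control mean by 0.72 on the log2 scale, which is 1.65-fold. The 9 controls lay between -0.06 and 0.08 on the same measure (SD 0.046, n = 9). Without the filter on low values the difference was 0.46. An exact two-sided permutation test of 1 array against 9 gave p = 0.2, the smallest p it can give with these numbers, so the design cannot pass a threshold. The trisomic line lay above 9 of 9 controls. Over the other chromosomes the shift in the trisomy 1 line ran from -0.13 on chromosome 12 to 0.0015 on chromosome 6. These values are measured against all other autosomes, chromosome 1 included, which lowers each of them slightly.

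**Figure D1:**
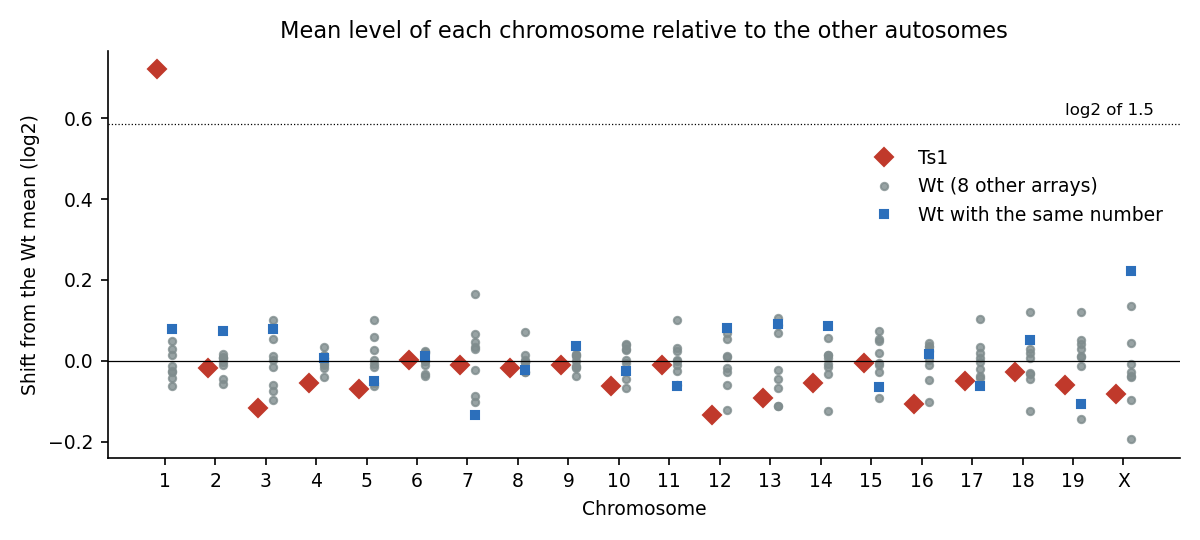
Mean log2 level of the genes of each chromosome relative to the other autosomes, as a difference from the mean of the 9 controls (vertical axis, log2), for chromosomes 1 to 19 and X (horizontal axis). Red diamonds are the trisomy 1 line, blue squares the number-matched control and grey points the other controls. On chromosome 1 the trisomic line is at 0.72, above the dotted line at 0.58 (the log2 of 1.5), and all controls are at or below 0.08.

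A median is less affected than a mean by a few genes with very wide differences. The median chromosome 1 gene differed from the control mean by 0.70 in the trisomy 1 line (quartiles 0.33 and 1.10), and the median gene elsewhere by 0.03. Chromosome 1 less the rest is then 0.66, or 1.58-fold. Against the number-matched control alone the medians were 0.51 on chromosome 1 and -0.07 elsewhere, a distance of 0.58, or 1.5-fold. Without the filter on low values this distance was 0.082. The number-matched control had the highest chromosome 1 shift among the controls, 0.08. It also had the highest 3' minus 5' differences among them, where Gapdh was at 0.60 in the trisomy 1 line and 1.41 in this control, and actin at 0.69 in the trisomy 1 line and 0.98 in this control. The part of RNA quality in this comparison was not tested. Against each of the other 8 controls in turn the distance was 0.62 to 0.78, so the number-matched control gave the smallest of the 9 values.

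The trisomic line and the number-matched control also differed in genes of the sex chromosomes. Xist, the RNA that silences one X chromosome in female cells, was at 2.37 in the trisomy 1 line, against 10.26 in the number-matched control. Eif2s3y, a Y-linked translation factor gene, was at 10.73 in the trisomy 1 line, against 3.10 in that control. Over all 9 controls Xist was at or above 4 in 5 and Eif2s3y in 4, so both patterns occur among them. Uty and Kdm5d, Y-linked histone demethylase genes, were at 8.37 and 8.08 in the trisomic line, against 2.58 and 2.35 in the number-matched control. The part of this difference in the comparison with that single control was not tested.

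The higher level of chromosome 1 was spread over most of its genes. In the trisomy 1 line 375 of 414 genes (90.6%) were above the control mean, against 53.2% of genes on other chromosomes. It was above the number-matched control for 341 (82.4%), against 43.7% of genes elsewhere. Above all 9 controls lay 248 chromosome 1 genes (59.9%), below all 9 lay 0, and 166 (40.1%) were inside the range. On other chromosomes 819 of 6968 genes (11.8%) lay above all 9 controls and 763 (11.0%) below, and 5386 (77.3%) were inside. By rank alone, an array among 10 is on average the highest for 1 in 10 genes and the lowest for as many. The shares on other chromosomes are therefore not counts of genes changed by the trisomy. After quantile normalization of the 10 arrays the split elsewhere was 697 above and 982 below. With a margin of at least 0.25 beyond the nearest control, 161 chromosome 1 genes lay above, and elsewhere 304 above and 336 below. Of the chromosome 1 genes outside with several probe sets, 48 of 143 (33.6%) had the same call on all of them, and elsewhere it was 142 of 791 (18%). Of 85 chromosome 1 genes with a difference of 0.3 to 0.6 from the control mean, 37 lay above all controls, and of 113 with a difference of 0.6 to 1 it was 93. Just outside lay Tmem70, at 12.60 in the trisomy 1 line with the highest control also at 12.60, and just inside lay Mr1, at 5.67 in both. The number-matched control was the highest control for 91 of the 248 genes (36.7%), more often than any other.

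**Figure D2:**
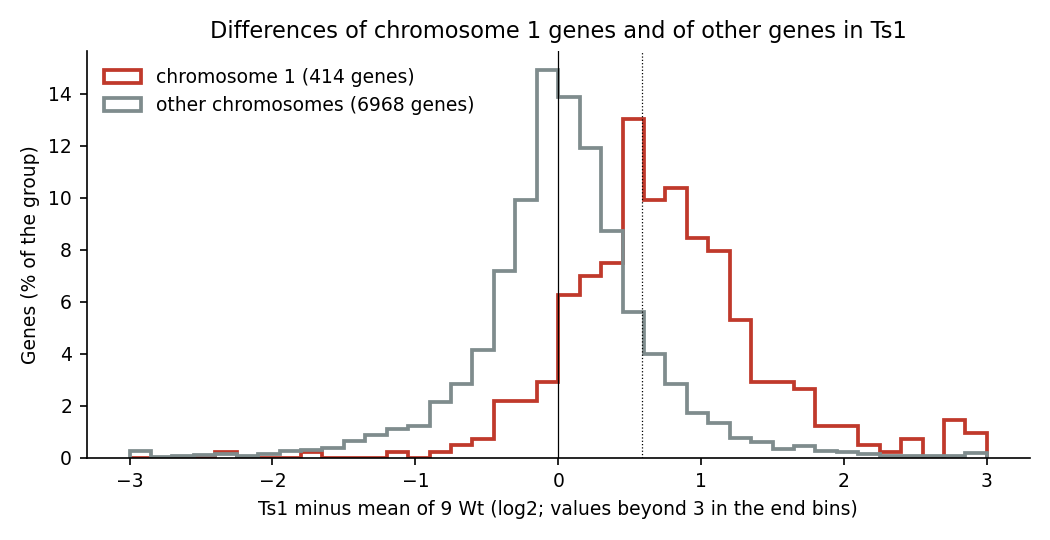
Distribution of the differences between the trisomy 1 line and the mean of the 9 controls (horizontal axis, log2) for 414 chromosome 1 genes (red) and 6968 genes of other chromosomes (grey), as percent of each group (vertical axis). The dotted line marks 0.58, and the chromosome 1 genes lie to the right of the other genes, with medians of 0.70 and 0.03.

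The difference was present from one end of chromosome 1 to the other. The 414 genes were divided in chromosome order into 10 stretches of 41 or 42 genes. The median difference was 0.64 in the first stretch, from Mrpl15 to Coa5, and 0.81 in the last, from Wdr26 to Cr1l. Between them the lowest median was 0.56, from Ufc1 to Cnih4, and the highest 0.90, from Bcs1l to Cops8. In each of the 10 the median of the trisomic line was above that of every control, the highest of which was 0.41. In the stretch from Bcs1l to Cops8, 32 of 42 genes (76.2%) lay above all controls, and in that from Ufc1 to Cnih4 it was 19 of 41 (46.3%). Differences between stretches were not tested.

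**Figure D3:**
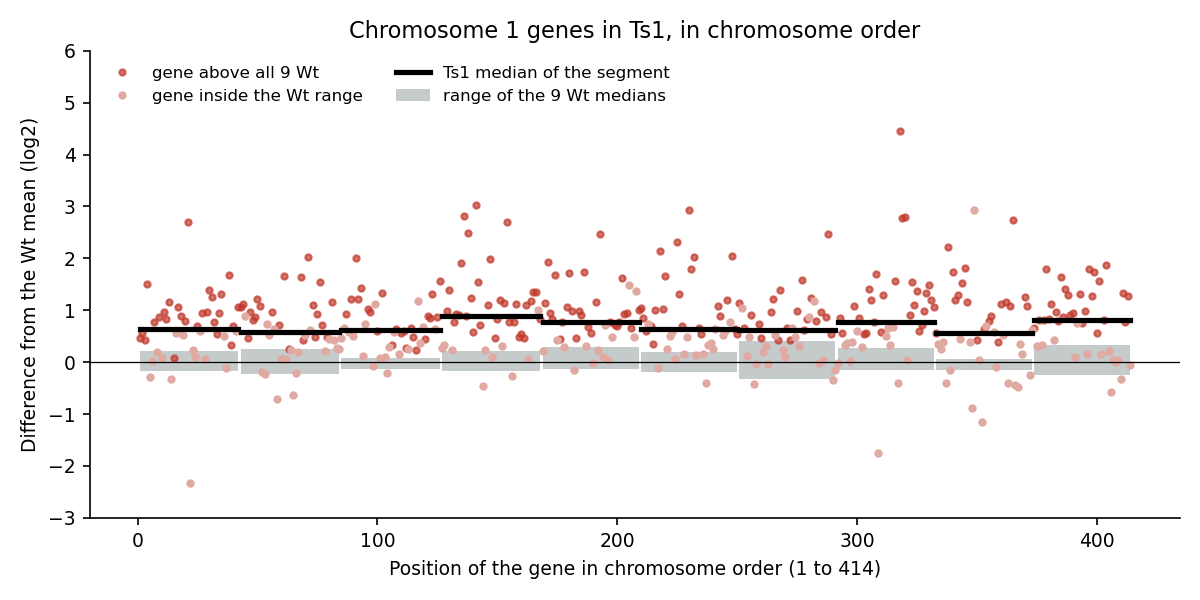
Difference of each chromosome 1 gene in the trisomy 1 line from the mean of the controls (vertical axis, log2), in chromosome order from gene 1 to gene 414 (horizontal axis). Red points lay above all 9 controls and pale points inside their range, black bars are the medians of 10 stretches (0.56 to 0.90), and grey boxes span the medians of the 9 controls.

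Median differences were lower among the brightest chromosome 1 genes, which was not tested. The median difference of chromosome 1 genes was 0.79 at a control mean under 6 (45 genes), 0.98 between 6 and 8 (69 genes), 0.76 between 8 and 10 (117 genes), 0.67 between 10 and 12 (123 genes) and 0.47 at 12 or more (60 genes). Genes elsewhere had medians between -0.01 and 0.12 over the same ranges. The share above all controls was 60.9% between 6 and 8 and 56.7% at 12 or more.

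The 12 chromosome 1 genes with the widest gap to the highest control were of varied function. Rgs5, a regulator of G protein signalling that marks pericytes, was at 8.57 in the trisomy 1 line, against 3.55, 3.99 and 5.67 in controls (lowest, median and highest), with the number-matched control the highest. Hsd17b7, an enzyme of cholesterol and sex steroid synthesis, was at 10.61 in the trisomy 1 line, against 7.05, 7.98 and 8.51 in controls. Cflar, which encodes the caspase-8 inhibitor c-FLIP, was at 11.12 in the trisomy 1 line, against 8.08, 9.16 and 9.74 in controls. In none of these genes did the trisomic line overlap the controls. The differences from the control mean of Hsd17b7 and Cflar, 2.80 and 2.01, exceed the 0.58 of an added copy. That of Rgs5, 4.45, is set against controls at or near the filter level of 4, where values carry little information on level. For Rgs5, 3 of 4 probe sets lay above all controls, for Hsd17b7 2 of 2 and for Cflar 2 of 4.

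Cdk18, a kinase of the cyclin-dependent family, was at 9.13 in the trisomy 1 line, against 5.35, 6.18 and 7.40 in controls. Ptprn, a phosphatase-like protein of secretory granules, was at 8.81 in the trisomy 1 line, against 4.08, 6.29 and 6.99 in controls. Dner, a transmembrane protein with EGF-like repeats, was at 8.90 in the trisomy 1 line, against 3.17, 6.54 and 7.66 in controls. All controls of these 3 genes were lower, but with a spread of more than 2 log2 units between them. Itpkb and Inpp1 act on inositol phosphates, as a kinase and as a phosphatase. Itpkb was at 7.00 in the trisomy 1 line, against 3.57, 3.94 and 5.50 in controls, and Inpp1 at 6.33, against 3.797, 4.22 and 5.07. Both were near the filter level of 4 in most controls, where values carry little information on level. Mark1, a kinase that acts on microtubule-associated proteins, had the tightest controls of the 12, with 7.88 in the trisomy 1 line, against 6.21, 6.53 and 6.64. It lay above all controls on 3 of 5 probe sets. Pign, an enzyme of GPI anchor synthesis, differed from the control mean by 2.47, but only 1 of its 4 probe sets lay above all controls. Ramp1, a partner of the calcitonin receptor-like receptor, differed by 1.92, and Wdfy1, an endosomal protein, by 1.99, on 2 of 3 probe sets.

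Chromosome 1 genes were also read by role, in 7 lists. The count of each is to be read against the 59.9% of all chromosome 1 genes that lay above all controls. Above that share were RNA, protein and membrane traffic genes (17 of 24, 70.8%, median difference 0.62), metabolic genes (12 of 17, 70.6%, median 0.62) and signalling genes (11 of 16, 68.8%, median 1.17). Cell death and stress genes were at 6 of 10 (60%, median 1.03). Below it were matrix genes (4 of 11, 36.4%, median 0.28). So were genes listed under cell division (5 of 19, 26.3%, median 0.24) and under transcription (2 of 9, 22.2%, median 0.30). The median over all chromosome 1 genes was 0.70.

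Among signalling genes, Rgs4, like Rgs5 a regulator of G protein signalling, was at 10.78 in the trisomy 1 line, against 6.25, 8.09 and 9.76 in controls. Adipor1, the adiponectin receptor, was at 12.93 in the trisomy 1 line, against 11.61, 11.87 and 11.96 in controls, and all 3 of its probe sets lay above all controls. Fzd7, a Wnt receptor, was at 11.88 in the trisomy 1 line, against 9.97, 10.49 and 11.004 in controls. All of these were clear of the controls, though on 2 of 3 probe sets for Rgs4 and 1 of 2 for Fzd7. Tgfb2, the ligand TGF-beta 2, was at 11.34 in the trisomy 1 line, against 8.27, 10.25 and 11.02 in controls. The receptors Bmpr2, Nrp2, Il1r1 and Ddr2 were inside the control range, with differences from the control mean of 0.73, 1.12, -0.18 and 0.05.

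Genes of cell death and stress on chromosome 1 held both arms of the death receptor pathway. Casp8, the initiator caspase, was at 10.76 in the trisomy 1 line, against 8.64, 9.32 and 10.29 in controls, and its inhibitor Cflar was given above. Mgst3, a microsomal glutathione transferase, was at 9.66 in the trisomy 1 line, against 7.15, 8.27 and 8.51 in controls. Bag2, a co-chaperone of Hsp70, was at 11.46 in the trisomy 1 line, against 9.31, 9.94 and 10.96 in controls. Each of these was above all controls, Mgst3 on 1 of 2 probe sets. The chaperonin pair lies next to each other on the chromosome: Hspe1 was at 14.53 in the trisomy 1 line, against a highest control of 14.27, whereas Hspd1, at 14.35, was inside its range of 13.83 to 14.41. Capn2, a calpain protease, was above all controls by 0.08, and Bok, a member of the Bcl-2 family, was inside.

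Metabolic genes included subunits of mitochondrial complexes and the proton pump. Atp6v1h, a subunit of the vacuolar proton pump, was at 12.43 in the trisomy 1 line, against 10.03, 11.05 and 11.28 in controls. Atp1b1, the beta subunit of the sodium pump, was at 11.61 in the trisomy 1 line, against 9.15, 9.90 and 10.66 in controls. Iars2, the mitochondrial isoleucyl-tRNA synthetase, was at 10.59 in the trisomy 1 line, against 9.10, 9.67 and 10.22 in controls. All 3 lay above every control. Closer to the highest control lay Ndufs1 of complex I and Sdhc of complex II (differences from the control mean 0.61 and 0.73). The same held for fumarase Fh1 (0.43) and glutamine synthetase Glul (0.62). Sdhc lay above all controls on 1 of 2 probe sets. Ndufb3 and Idh1 were inside the range, at 0.50 and 0.57, Idh1 on 1 of 2 probe sets.

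Among the RNA, protein and traffic genes, Copa, a coat protein of Golgi vesicles, was at 14.20 in the trisomy 1 line, against 12.09, 13.07 and 13.48 in controls. Eif5b, a translation initiation factor, was at 12.62 in the trisomy 1 line, against 11.28, 11.68 and 12.001 in controls. Sf3b1, a splicing factor, was at 13.15 in the trisomy 1 line, against 12.14, 12.39 and 12.80 in controls. All were clear of the controls, by 0.72, 0.62 and 0.35, Sf3b1 on 1 of 3 probe sets. Tmbim1 lay 0.86 above the highest control, and Rab7b, a small GTPase near the filter level of 4 in controls, 0.74. The ribosomal protein genes Rpl7 and Rpl37a, among the brightest signals on the array, differed from the control mean by 0.08 and 0.24. Rpl37a lay 0.16 above its highest control. Rpl7 lay above its own by almost nothing, 0.0054, on 2 of 3 probe sets. Nop58 and Snrpe, which act in ribosomal RNA modification and splicing, were inside the range at 0.12 and 0.16.

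The lists with few genes outside held the main matrix and replication genes of the chromosome. The collagen gene Col3a1 was at 15.54 in the trisomy 1 line, inside 15.02 to 15.69 in controls. Fibronectin Fn1 was at 15.47 in the trisomy 1 line, against 14.97, 15.22 and 15.40 in controls, and Col5a2 at 15.54, against 15.14, 15.29 and 15.41. Both were above every control, by differences from the control mean of 0.28 and 0.26, less than the 0.58 of an added copy. Col5a2 lay above on 1 of 2 probe sets. Lamc1, a laminin chain, and Adamts4, a protease of aggrecan, differed more, by 0.99 and 1.33, and lay above all controls on 1 of 2 probe sets each. Igfbp2 and Igfbp5, which bind insulin-like growth factors, were inside ranges of several log2 units.

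Of 19 chromosome 1 genes listed under cell division, 14 were inside the controls, replication genes among them. The list is broad and also holds genes of DNA repair and of p53 control. Mcm6, a subunit of the replicative helicase, was at 12.04 in the trisomy 1 line, against 11.75, 12.06 and 12.80 in controls. Mcm3, of the same helicase, was at 10.76 in the trisomy 1 line, against 10.12, 10.56 and 11.14 in controls. Exo1, an exonuclease of DNA repair, was at 5.34 in the trisomy 1 line, against 5.32, 6.11 and 8.42 in controls. The trisomic line was near the lowest control for Exo1 and in the middle of the range for the helicase subunits. Dtl, part of a ubiquitin ligase of S phase, had a difference of -0.59. Orc2 and Prim2, of the origin recognition complex and primase, had 0.57 and 0.07. Exo1 and Dtl were inside on 1 of 2 probe sets each. The members of this list above all controls were Smyd2 (1.27), Nek7 (0.90), Cdc73 (0.73, on 1 of 4 probe sets), Mdm4 (0.66) and Xrcc5 (0.65, outside the naming rule). Mdm4 encodes an inhibitor of p53 and lay 0.07 above its highest control, on 1 of 2 probe sets.

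Of the genes listed under transcription, Atf6 was at 9.94 in the trisomy 1 line, against 7.70, 8.64 and 9.18 in controls. It encodes a sensor of unfolded protein in the endoplasmic reticulum. Gli2, an effector of Hedgehog signalling, was at 10.28 in the trisomy 1 line, against 8.95, 9.58 and 10.11 in controls, on 1 of 2 probe sets. Creb1, Atf3, Prrx1, Elk4 and Klf7 were inside the range, with differences of -0.20 for Klf7 to 0.48 for Elk4. Klf7 was inside on only 1 of 4 probe sets and Prrx1 on 3 of 4. In all, 39 of 414 chromosome 1 genes were at or below the control mean. The widest of these differences, chosen by size after the values were seen, were those of the transcription factor Tfap2b (-2.32) and the matrix gene Dpt (-1.75). Controls of both genes spread over more than 4 log2 units, and neither was outside them. Dpt was at 5.54 in the trisomy 1 line, against 4.63, 7.94 and 9.08 in controls.

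Off chromosome 1, cell division genes were low. Among 37 tested mitosis genes, 31 (83.8%) lay below all 9 controls in the trisomy 1 line and 0 above, where the share of all genes off chromosome 1 below all controls was 11.0%. The median difference from the control mean was -1.13, against 0.03 for all genes off chromosome 1, and 37 of 37 genes were lower than in the number-matched control. The mean deviation of the list was -1.16 in the trisomy 1 line, and from -0.52 to 0.86 in controls, with the number-matched control at -0.08. On the arrays of the other trisomies, given for reference only, it ran from -1.42 to 1.12.

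Cenph, a kinetochore protein, was at 6.53 in the trisomy 1 line, against 8.06, 8.85 and 9.56 in controls. Cenpe, the kinesin that moves chromosomes to the spindle equator, was at 4.64 in the trisomy 1 line, against 5.87, 6.87 and 8.72 in controls. Ncaph, a condensin subunit, was at 8.31 in the trisomy 1 line, against 9.39, 9.93 and 10.995 in controls. No control was as low as the trisomic line for any of them. Ndc80, which attaches kinetochores to microtubules, was at 6.81 in the trisomy 1 line, against 7.80, 8.17 and 9.86 in controls. The following members were picked after their values were seen, for their place in the cell cycle. Cdk1, the mitotic kinase, was at 10.77 in the trisomy 1 line, against 11.26, 11.498 and 12.92 in controls, and its partner Ccnb2 at 9.90, against 10.55, 10.78 and 11.96. Both were below all controls, as were Plk1, Aurkb, Bub1 and Cdc20. The 6 members inside the range were Aurka, Bub3, Prc1, Smc2, Tpx2 and Ect2, and Aurka, at 8.69 in the trisomy 1 line with the lowest control at 8.68, was near its lower end.

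Promoters of 4 mitosis genes are shown because these genes lay below all controls with the widest gaps among those whose upstream sequence holds both of the motifs that mark many late cell cycle genes. These motifs are the cell cycle genes homology region, TTTGAA, and the CCAAT box, letters CCAAT, each searched on both strands. The sequences are the 250 bases before the RefSeq start site (GRCm38.p6), 5' to 3' on the strand of the gene, with both motifs in capitals (TTCAAA and ATTGG are their reverse complements, and the motifs share no bases here). They are chr9:70421555-70421804 (minus strand) for Ccnb2, chr11:99024190-99024439 (minus strand) for Top2a, chr19:37376132-37376381 (plus strand) for Kif11 and chr7:127042421-127042670 (minus strand) for Kif22.
Ccnb2: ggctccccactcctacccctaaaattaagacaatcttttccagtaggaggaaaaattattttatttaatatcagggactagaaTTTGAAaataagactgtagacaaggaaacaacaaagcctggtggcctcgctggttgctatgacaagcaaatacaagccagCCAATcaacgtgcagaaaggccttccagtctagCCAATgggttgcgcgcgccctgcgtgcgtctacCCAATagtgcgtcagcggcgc
Top2a: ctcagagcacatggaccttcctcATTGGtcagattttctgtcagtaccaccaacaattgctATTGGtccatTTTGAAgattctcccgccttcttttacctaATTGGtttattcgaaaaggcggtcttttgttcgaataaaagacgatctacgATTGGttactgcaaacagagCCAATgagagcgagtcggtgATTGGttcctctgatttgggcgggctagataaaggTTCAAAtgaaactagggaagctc
Kif11: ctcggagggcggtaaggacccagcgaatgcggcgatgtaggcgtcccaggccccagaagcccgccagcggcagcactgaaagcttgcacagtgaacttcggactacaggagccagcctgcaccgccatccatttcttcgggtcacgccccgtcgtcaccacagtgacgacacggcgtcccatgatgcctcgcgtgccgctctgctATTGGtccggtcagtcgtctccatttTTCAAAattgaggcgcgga
Kif22: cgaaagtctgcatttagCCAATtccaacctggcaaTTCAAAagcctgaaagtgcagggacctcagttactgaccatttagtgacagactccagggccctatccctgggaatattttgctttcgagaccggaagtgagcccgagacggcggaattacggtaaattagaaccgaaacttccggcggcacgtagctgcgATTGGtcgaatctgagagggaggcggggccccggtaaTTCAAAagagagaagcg

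Of the 31 mitosis genes below all controls, 26 had a promoter in the RefSeq table. TTTGAA was found in 9 of these (34.6%), against 631 of 6069 tested genes with a promoter (10.4%) and 16.3% of all promoters in the table. CCAAT was found in 17 of 26 (65.4%), against 36.9% of tested genes and 34.5% of all promoters. Both were found in 8 (30.8%), against 3.94% of tested genes and 5.73% of all. Of the 6 mitosis genes inside the control range, 5 had a promoter, and 3 of these held TTTGAA and 5 held CCAAT. A match of these letters is a description of the sequence and not a binding site. Kif11, a spindle motor, was at 7.68 in the trisomy 1 line, against 8.24, 8.73 and 9.96 in controls. Kif22, a chromosome-binding motor, was at 9.82 in the trisomy 1 line, against 10.38, 10.61 and 11.11 in controls. Top2a, the topoisomerase of dividing cells, was at 10.70 in the trisomy 1 line, against 11.29, 11.78 and 12.90 in controls.

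DNA replication genes off chromosome 1 were low in the same way. Of 39 tested, 29 (74.4%) lay below all controls and 0 above, with a median difference of -1.05, and 38 of 39 were lower than in the number-matched control. Gins1, a subunit of the helicase complex, was at 5.54 in the trisomy 1 line, against 6.74, 7.80 and 8.96 in controls. Tk1, thymidine kinase, was at 7.51 in the trisomy 1 line, against 8.81, 9.54 and 11.01 in controls. Cdc6, which loads the helicase at origins, was at 6.02 in the trisomy 1 line, against 6.96, 7.503 and 8.93 in controls. All were below every control, by 0.94 to 1.30 log2 units. Rfc5, of the clamp loader, was at 7.45 in the trisomy 1 line, against 8.38, 8.87 and 9.74 in controls. E2f1, a transcription factor of the G1 to S transition, was the exception in direction, chosen after its value was seen. It was at 6.98 in the trisomy 1 line, inside 6.10 to 7.49 in controls, and above their mean. Of the promoters of the 29 genes, 25 were in the table, and 3 of them (12%) held TTTGAA and 15 (60%) CCAAT. In bulk RNA, fewer cells of a cycling kind and less RNA per cell cannot be told apart.

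**Figure D4:**
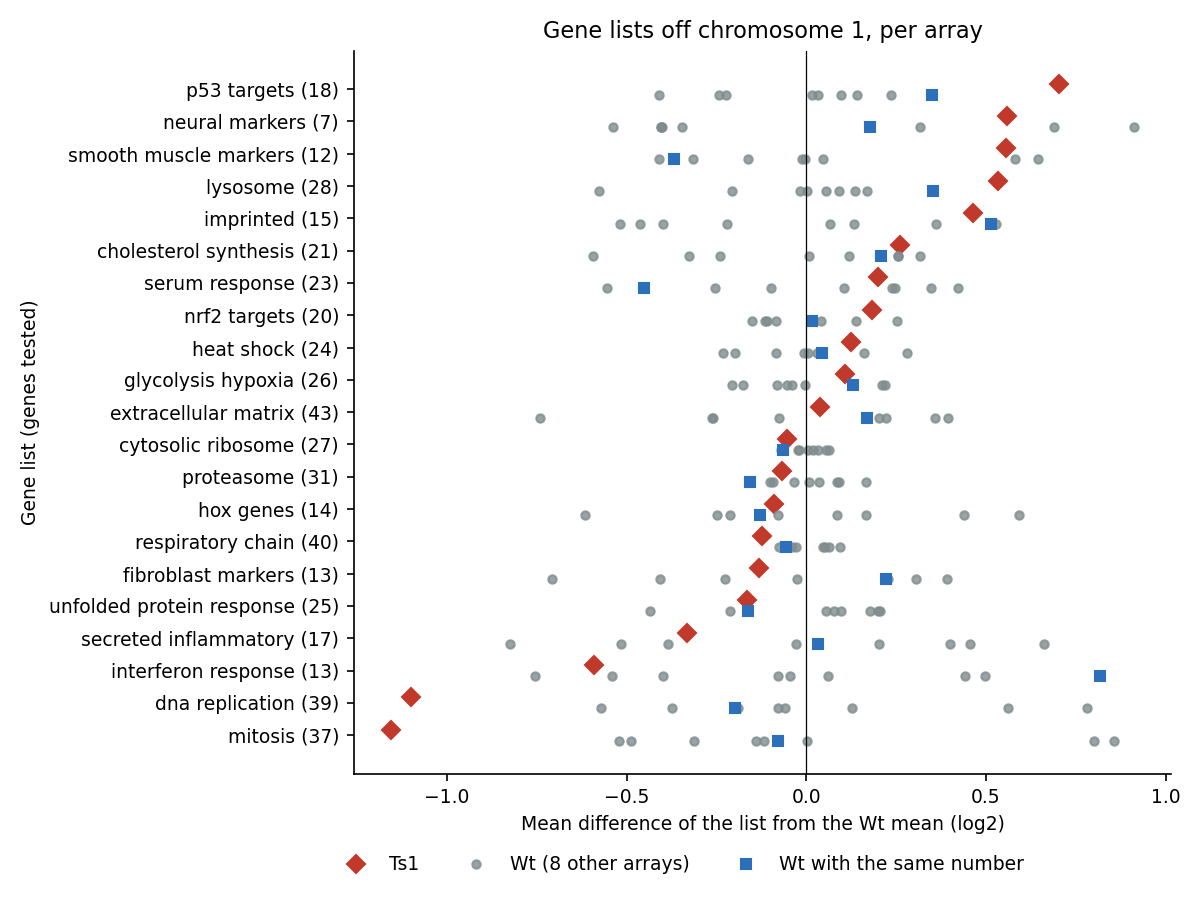
Mean difference from the control mean over the genes of each of 21 lists off chromosome 1 (horizontal axis, log2), with the number of genes tested in brackets, for the trisomy 1 line (red diamonds), the number-matched control (blue squares) and the other 8 controls (grey). For mitosis and DNA replication the trisomic line is at -1.16 and -1.10, left of every control, and for p53 targets and lysosome it is at 0.70 and 0.53, right of every control.

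Targets of p53, the transcription factor that halts division after damage, lay high. Of 18 tested, 8 (44.4%) were above all controls and 0 below, against 11.8% above for all genes off chromosome 1, with a median difference of 0.55 and a median against the number-matched control of 0.53. Cdkn1a, the inhibitor p21 of cyclin-dependent kinases, was at 13.99 in the trisomy 1 line, against 12.24, 12.73 and 13.18 in controls. Mdm2, the ubiquitin ligase of p53, was at 11.62 in the trisomy 1 line, against 8.98, 9.71 and 10.01 in controls, on both of its probe sets. Pmaip1, the cell death protein Noxa, was at 13.19 in the trisomy 1 line, against 9.92, 10.90 and 12.37 in controls. The trisomic line was above every control for each. Perp, a junction and cell death protein, was at 10.09 in the trisomy 1 line, against 4.62, 6.38 and 9.44 in controls. The others above all controls, named after their values were seen, were Ccng1, Zmat3, Aen and Ei24, and 10 targets were inside, among them Gadd45a, Sesn2 and Bbc3. The mean deviation of the list was 0.70 in the trisomy 1 line, and from -0.41 to 0.35 in controls, where the number-matched control was the highest.

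Lysosome genes were high against the 9 controls and less so against the number-matched control. Of 28 tested, 15 (53.6%) lay above all controls and 0 below, where the shares of all genes off chromosome 1 were 11.8% and 11.0%, with a median difference of 0.49 from the control mean but 0.12 from the number-matched control, which was the highest control for this list at 0.35. Atp6v0d1, a subunit of the proton pump, was at 13.06 in the trisomy 1 line, against 9.99, 12.04 and 12.24 in controls. Neu1, lysosomal sialidase, was at 8.58 in the trisomy 1 line, against 5.87, 6.93 and 8.03 in controls. Ctsd, the protease cathepsin D, was at 13.25 in the trisomy 1 line, against 11.86, 12.59 and 12.90 in controls. These 3 lay above every control, Neu1 on 1 of 3 probe sets, and Ctsa, a protective protein of other lysosomal enzymes, lay 0.35 above its highest. Summed linear signal of macrophage markers, a cell type rich in lysosomes, was 123 in the trisomy 1 line, against 125 to 1166 in controls. In the trisomic line 15 of 16 of these markers were under 4, so the sum carries little information. The part of macrophages in the lysosome values was not tested.

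Imprinted genes showed a similar dependence on the control. Of 15 tested, 6 (40%) lay above all controls and 1 below, against background shares of 11.8% and 11.0%, with a median difference of 0.41 from the control mean and 0.00 from the number-matched control. Dlk1, a Notch-like membrane protein, was at 11.11 in the trisomy 1 line, against 7.05, 8.44 and 10.22 in controls. Cdkn1c, the kinase inhibitor p57, was at 10.68 in the trisomy 1 line, against 8.36, 8.82 and 10.59 in controls. For both the number-matched control was the highest control. Ndn was above all controls by 0.13, on 3 of 8 probe sets, and Sgce was below all by 0.13. Cdkn1c lay above by 0.10, and the other genes above all controls by almost nothing: Igf2 by 0.011, Impact by 0.0035 and Grb10 by 0.0022.

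Secreted and immune genes were mixed. Of 17 secreted inflammatory genes 2 (11.8%) lay below all controls, near the 11.0% of all genes off chromosome 1. Both encode neutrophil chemokines. Cxcl1 was at 2.27 in the trisomy 1 line, against 6.03, 7.32 and 9.64 in controls, and Cxcl5 at 3.16, against 4.43, 9.98 and 11.70. Both were under the filter level of 4 in the trisomic line and above it in all controls. The median of the list was nevertheless 0.42, and its mean -0.33. Of 13 interferon response genes 2 (15.4%), Ifi35 and Ifit2, lay below all controls, where 11.0% is the background, with a list median of -0.45, and 13 of 13 were lower than in the number-matched control, which had the highest interferon level of the controls (0.82).

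Matrix genes off chromosome 1 had 7 of 43 (16.3%) above all controls and 4 (9.3%) below, close to the background shares. Col4a1 and Col4a2, the neighbouring genes of basement membrane collagen IV, were at 15.18 and 13.42 in the trisomy 1 line, against highest controls of 14.89 and 12.87. Mmp2, a gelatinase, was at 13.01 in the trisomy 1 line, against 11.55, 12.29 and 12.77 in controls. Mfap5, a microfibril protein, was at 9.39 in the trisomy 1 line, against 10.00, 10.79 and 11.90 in controls, and lay below all.

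Energy metabolism genes showed small differences. Of 40 respiratory chain genes 10 (25%) lay below all controls and 2 above, where the background was 11.0% below and 11.8% above, with a median of -0.13, and the list mean of -0.12 was below the lowest control (-0.08). Ndufs7 of complex I was at 11.61 in the trisomy 1 line, against 11.92, 12.21 and 12.66 in controls, on 1 of 2 probe sets. Glycolysis and hypoxia genes had 5 of 26 (19.2%) above and 3 (11.5%) below, against the same background. Eno3, the muscle enolase, was at 10.26 in the trisomy 1 line, against 7.87, 8.51 and 9.44 in controls. Ndrg1, a gene known to respond to hypoxia, was at 8.70, against 9.70, 10.10 and 10.74, on 2 of 5 probe sets. Of Nrf2 targets 4 of 20 (20%) were above all controls and 1 (5%) below, against 11.8% and 11.0%, with a median of 0.08. Among those above was Hmox1, haem oxygenase, at 11.24 in the trisomy 1 line, against 6.77, 10.16 and 10.81 in controls.

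The lists of protein folding and turnover had smaller shares above all controls than the 11.8% of all genes off chromosome 1. Counts in this paragraph are to be read against that share and the 11.0% below. Heat shock genes had 1 of 24 above and 1 below all controls (4.17% each, median 0.02). Proteasome genes had 2 of 31 above and 2 below (6.45% each, median -0.09). The unfolded protein response had 1 of 25 above (4%) and 3 below (12%), with a median of 0.06. Hspa5, the main chaperone of the endoplasmic reticulum, was above all controls by 0.04, on 1 of 2 probe sets. Its relative Hyou1 was at 7.20 in the trisomy 1 line, against 8.03, 8.18 and 9.16 in controls, on 1 of 3 probe sets. Cytosolic ribosome genes had 5 of 27 (18.5%) below and 2 above, with a median of -0.06. Cholesterol synthesis genes had 2 of 21 above (9.52%) and 1 below (4.76%, median 0.28). Serum response genes had 3 of 23 above (13%) and 0 below (median 0.08). Hox genes had 1 of 14 above (7.14%) and 2 below (14.3%, median -0.15). Medians of the ribosome, heat shock, proteasome, unfolded protein response, Hox and fibroblast marker lists changed sign under at least 1 other setting.

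Marker lists were read for other cell types, against the 11.8% above and 11.0% below of all genes off chromosome 1. Fibroblast markers had 0 of 13 outside the controls. Smooth muscle markers, which cultured fibroblasts also express, had 3 of 12 (25%) above and 0 below (median 0.42). Actg2 was at 13.98 in the trisomy 1 line, against 12.34, 13.02 and 13.88 in controls. The 3 genes lay above by only 0.10 (Actg2), 0.07 (Cnn2) and 0.04 (Tpm1, on 1 of 3 probe sets). Neural markers had 1 of 7 above (14.3%), Ncam1, by 0.04 on 1 of 6 probe sets. In lists with fewer than 5 tested genes some single markers, named after their values were seen, were outside. Acta1, skeletal actin, was at 12.24 in the trisomy 1 line, against 8.50, 10.39 and 11.87 in controls, while the muscle determination gene Myod1 was at 1.65 and 15 of 17 skeletal muscle markers were under 4. Col2a1, a cartilage collagen, was at 10.82 in the trisomy 1 line, against 5.01, 6.93 and 10.11 in controls, and Krt18, an epithelial keratin, at 8.08, against 3.88, 6.34 and 7.27. Of the epithelial markers 12 of 14 were under 4. Of the cartilage and bone markers 10 of 13 were under 4. Sox9, at 6.84, was inside its range of 6.18 to 7.59, and Col10a1 was at 5.18 with all controls under 4. Of the endothelial markers 10 of 13 were under 4, and 1 lay above all controls and 1 below. Eng was at 6.76, below its lowest control of 6.86, and Emcn at 4.69, above its highest control of 4.33. The part of these markers in the other differences was not tested.

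Single genes off chromosome 1 with wide gaps are given next, 12 in each direction. Traf4, an adaptor of the TNF receptor family, was at 7.72 in the trisomy 1 line, against 4.54, 4.97 and 5.44 in controls. Uchl1, a deubiquitinase abundant in neurons, was at 10.59 in the trisomy 1 line, against 4.33, 6.11 and 8.33 in controls, with the number-matched control the highest. Tinagl1, a secreted matrix protein, was at 11.10 in the trisomy 1 line, against 6.94, 8.73 and 9.25 in controls. In each the trisomic line was clear of the controls by more than 1.5 log2 units, Traf4 on 1 of 2 probe sets. Sncg, gamma-synuclein, was at 6.26 in the trisomy 1 line and under 4 in all controls (3.71, 3.74 and 3.84). It passed the filter only through trisomic arrays. Fabp3, a fatty acid carrier, was at 10.91 in the trisomy 1 line, against 7.65, 8.52 and 9.52 in controls. Ptp4a3, a phosphatase, was at 10.17 in the trisomy 1 line, against 7.17, 8.17 and 8.74 in controls, on 1 of 2 probe sets. The other genes above included Pcsk5, a proprotein convertase (difference from the control mean 2.40, on 1 of 4 probe sets). The rest were Tmem80 (1.95), Nav2 (2.60), Rusc2 (1.74) and Abat, which breaks down GABA (2.72, on 1 of 2 probe sets). Mdm2 was given above.

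On the low side, Mxd3, a partner of Max in the Myc network, was at 4.91 in the trisomy 1 line, against 7.73, 8.06 and 8.34 in controls, and all 3 of its probe sets were below all controls. Adh7, an alcohol and retinol dehydrogenase, was at 4.34 in the trisomy 1 line, against 6.82, 7.65 and 8.55 in controls. Lgr5, a receptor for R-spondins, was at 2.11 in the trisomy 1 line, against 5.72, 9.06 and 11.42 in controls. The trisomic line was far below the tight controls of Mxd3 and below the widely spread controls of Lgr5. Ptx3, a soluble pattern recognition protein, was at 10.30 in the trisomy 1 line, against 11.60, 12.61 and 14.03 in controls. Tinf2, a telomere protein of the shelterin complex, was at 7.42 in the trisomy 1 line, against 8.66, 8.79 and 8.99 in controls. Of the remaining genes, 5 act in cell division or DNA synthesis: Cenph, Cenpe and Tk1, given above, Cenpn, a kinetochore protein (difference -1.97), and Cdca5, which holds sister chromatids together (-1.92). Shcbp1 (-1.84) and Cxcl1 complete the 12.

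**Figure D5:**
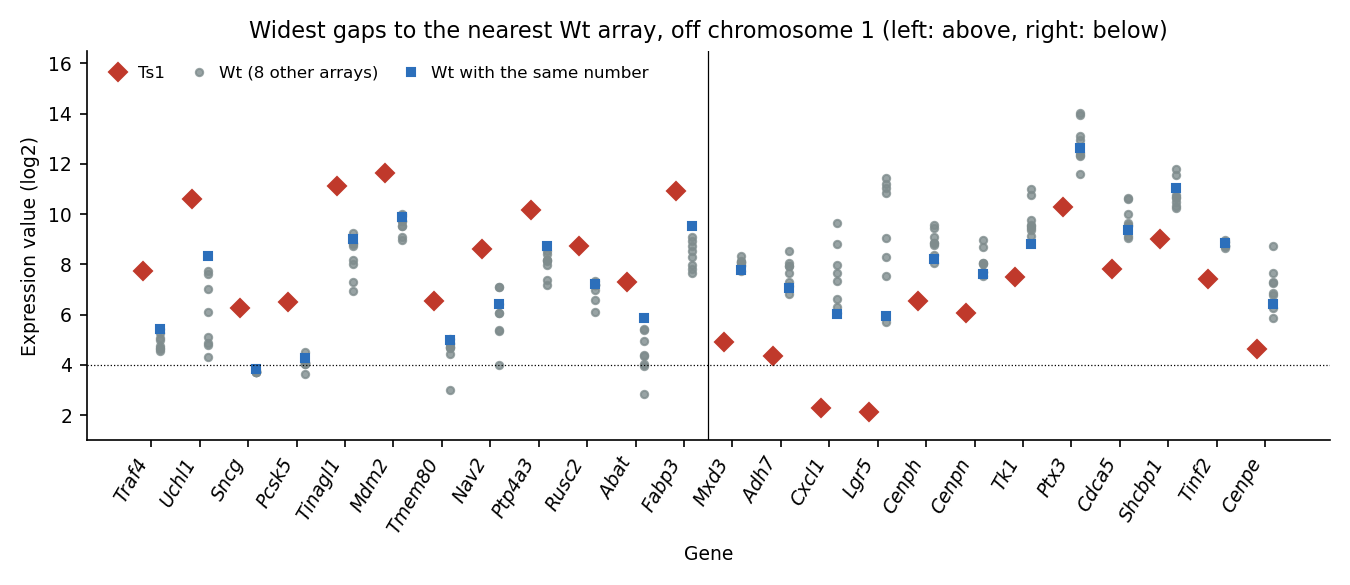
Expression values (vertical axis, log2) of the 12 genes off chromosome 1 with the widest gap above all controls (left) and the 12 with the widest gap below (right), one gene per position on the horizontal axis. Red diamonds are the trisomy 1 line, blue squares the number-matched control and grey points the other 8 controls, and the dotted line at 4 is the filter level. Traf4 is at 7.72 in the trisomic line, above a highest control of 5.44, and Mxd3 at 4.91, below a lowest control of 7.73.

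Against the number-matched control alone, 353 of 6968 genes off chromosome 1 (5.07%) were higher in the trisomy 1 line by at least 1 log2 unit and 517 (7.42%) lower. Of these, 145 and 190 also lay outside all 9 controls in the same direction. On chromosome 1 it was 96 genes (23.2%) higher and 9 (2.17%) lower. At least 1 log2 unit beyond all 9 controls lay 23 chromosome 1 genes (5.56%), all above, and 25 (0.359%) above and 27 (0.387%) below on the other chromosomes.

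As an alternative to the range of the controls, limma was fitted with the trisomic line assumed to vary like the other groups. With 1 trisomic array the fit cannot measure the spread of the trisomy, so its calls describe this array only. Of the genes it called, Sncg was under 4 in all controls (SD 0.044) and passed the filter only through trisomic arrays. Rgs5 had a control mean of 4.12, and values at such levels carry little information on level. At a Benjamini-Hochberg adjusted p under 0.05 the fit to all 18 arrays called 3 genes, and the fit to the trisomic line and the 9 controls called the same 3. They were Rgs5, 1 of 414 chromosome 1 genes (0.242%), on the high side, and Sncg on the high side and Mxd3 on the low side, each 1 of 6968 other genes (0.0144%). In both fits 0 chromosome 1 genes were called on the low side by limma, and 0 had an unadjusted p under 0.05 in that direction. At that unadjusted p the fit to all arrays had 120 chromosome 1 genes on the high side, and 149 high and 195 low elsewhere. The fit to the 10 arrays had 168 on chromosome 1, and 246 high and 293 low elsewhere.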

How the data were processed

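The authors deposited log2 expression values per probe set, made with GCRMA and the affy package, per the submitters' processing notes. Those notes give no versions or settings. Of 22690 probe sets, 20393 were listed with 1 gene, 691 with several and 1606 with none. The brightest probe set of a gene was kept, and genes were placed by RefSeq (GRCm38.p6). Calls of named genes rest on that probe set, and other probe sets of a gene can differ. Genes with a mean under 4 over the 18 arrays were left out. A gene was outside when beyond the range of all 9 controls. Per array, the mean of chromosome 1 minus that of the other autosomes was taken relative to the control mean.

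Named genes were the 12 largest gaps beyond the nearest control on chromosome 1, the 12 in each direction elsewhere (values under 4 set to 4), up to 4 outside members per list and up to 6 members of each chromosome 1 list. Comparison, members and lists were chosen with earlier results of these data known. Arrays give no counting depth, and their number limits the precision. If the lines share embryos, p-values measure only the spread between these samples.

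The range rule, and limma 3.58.1 in R 4.3.3, were tested on simulated data. Alternatives were other filters, probe set summaries, scalings, controls and limma.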

Additional observations from a re-analysis of the deposited data

Results flagged for a closer look

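A control stood apart from the other controls in 4 of 65 sets of control values examined, by a gap to its nearest neighbour of more than 0.493 of the whole range. Chance marks about 1 in 20 such sets. Control replicate 9, the number-matched one, was at 5.67 for Rgs5, with the next control at 4.39. Control replicate 4 was at 3.17 for Dner, with the next at 5.76. Control replicate 1 was at 3.00 for Tmem80, with the next at 4.42. Control replicate 3 had a mean deviation of -0.46 for chromosome 1 signalling genes, with the next at -0.11.

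On arrays of the other trisomies, chromosome 1 was above the highest control (0.08) in 3 lines that are not trisomic for it. The shift was 0.15 on trisomy 16 replicate 1, 0.16 on trisomy 13 replicate 3 and 0.21 on trisomy 13 replicate 4. On the same arrays the Gapdh 3' minus 5' difference was 6.55, 6.94 and 5.57, against 0.60 in the trisomy 1 line and at most 1.41 in the controls. The part of this measure in these shifts was not tested.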

How the results depend on the processing

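The chromosome 1 shift was positive under every setting run, from 0.46 without the filter on low values to 0.74, and 0.71 to 0.73 when 1 control was left out. Against the number-matched control the median distance was 0.082 without the filter. Chromosome 1 genes below all controls numbered 2 without the filter, 1 with the mean of probe sets, 2 after median centring, 3 after quantile normalization and 0 to 4 when 1 control was left out (4 without replicate 3). With a margin of 0.25, 161 chromosome 1 genes were above, and elsewhere 304 above and 336 below. Limma called 1, 1 and 1 in both fits. Leaving out 1 control gave 249 to 267 chromosome 1 genes above, and elsewhere 825 to 1206 above (1206 without replicate 9) and 774 to 1020 below (1020 without replicate 3). Quantile normalization turned the split elsewhere to 697 above and 982 below, and median centring to 761 and 874, against 819 and 763. Counts for lists without 1 control were added after seeing the data: 31 to 33 mitosis and 29 to 34 replication genes below, and 8 to 9 p53 targets and 15 to 16 lysosome genes above. Over the other settings these were 30 to 33, 29 to 32, 8 and 12 to 15. Medians of the ribosome, heat shock, proteasome, unfolded protein response, Hox and fibroblast marker lists changed sign under at least 1 setting. Of genes outside with several probe sets, all probe sets gave the same call for 48 of 143 on chromosome 1 (33.6%) and 142 of 791 elsewhere (18%). No paired analysis was possible because there is 1 trisomic array, which shares its replicate number with 1 control and the first number of its title with another. The cause of these changes was not tested.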
